A study of Mus musculus with 15 samples.

Results

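Rhox5, a homeobox gene of the X chromosome, was followed over 15 mouse samples measured on 1-colour Agilent expression arrays. Its members were all probes that the scanner files name Rhox5, which gave 2 of the 56605 probes and 1 of the 37008 genes on the array. The samples fell into 5 groups of 3. Pancreatic stellate cells (PSC), the fibroblast-like cells that lay down matrix in the diseased pancreas, came from mice that were wild-type (PSC WT) or heterozygous (PSC HT) and were grown for 2 weeks until they were activated. The other 9 samples were pancreatic cancer cells, called neoplastic cells in the labels, exposed for 24 h to control medium, to medium conditioned by WT PSC (WT PSC medium) or to medium conditioned by HT PSC (HT PSC medium). The labels used here name neither the heterozygous locus, nor the cancer cell line, nor the strain or age of the mice. They also do not say whether replicates came from separate cultures or animals, so errors and p-values cover only the sample-to-sample spread, in part perhaps technical.

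Rhox5, formerly called Pem, encodes a transcription factor with a divergent homeodomain and belongs to the reproductive homeobox (Rhox) cluster. It is known from placenta, testis, epididymis and ovary, and in the testis the Sertoli cells, which nurse the germ cells, make it in response to androgen. Transcription can start at a proximal or a distal promoter, the distal one being driven by Ets and Sp1 family factors. Most adult tissues keep the gene silent, with DNA methylation of the promoter as a known means, while many tumour cell lines express it.

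The 2 probes, the oligonucleotides whose brightness is the measurement, are shown because everything that follows rests on them. Capitals mark the bases that both share.
Brighter probe: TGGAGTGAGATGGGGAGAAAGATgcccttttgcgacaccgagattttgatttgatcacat
Dimmer probe: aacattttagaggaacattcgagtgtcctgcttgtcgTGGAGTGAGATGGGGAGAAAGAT
Per the files the dimmer probe starts at base 669 of the Rhox5 transcript and the brighter one at base 706, so that they overlap by 23 bases and are not independent readings. Joined they cover 97 bases, and in 1 of the 3 reading frames no stop codon occurs before base 84. Both are 45.0% G and C. The longest run that the brighter probe shares with a probe of any other gene is 15 bases, and for the dimmer probe it is 12. The files leave both probes without a genome position, so none is given. The RNA was labelled through double-stranded cDNA, and a transcript of the opposite strand cannot be told apart from Rhox5 here.

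RefSeq places the start of Rhox5 on the plus strand of the X chromosome in build GRCm38.p6, and the 250 bases before it (chrX:37754358-37754607) are shown because Ets and Sp1 motifs are part of what is known of this gene. Capitals mark the motifs searched on both strands, TTCCGG (the core bound by Ets factors), GGCGGG (the core of Sp1 sites) and CCAAT.
Rhox5 upstream: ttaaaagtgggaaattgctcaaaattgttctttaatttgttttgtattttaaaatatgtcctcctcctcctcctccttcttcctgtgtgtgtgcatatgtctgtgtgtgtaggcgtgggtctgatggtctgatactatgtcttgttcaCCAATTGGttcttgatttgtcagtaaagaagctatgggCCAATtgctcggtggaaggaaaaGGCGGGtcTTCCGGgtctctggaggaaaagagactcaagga
TTCCGG occurred once, at position -33 from the start, and 12.0% of the 32851 RefSeq promoters hold it in a window of this length. GGCGGG occurred once, at -41, against 32.5% of promoters. CCAAT occurred 3 times, of which 2 matches overlap within CCAATTGG, and 2.79% of promoters hold as many. The window has 4 CG pairs, the dinucleotide that DNA methylation acts on, where the median promoter has 6 and 62.2% have 4 or more. One CG lies within the GGCGGG match and one within the TTCCGG match. No array value shows which start site was used in these cells, and DNA methylation was not measured.

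Rhox5 signal was low in control cancer cells and about equally high in both PSC media. These are bulk samples, so more cells with Rhox5 and more Rhox5 RNA per cell cannot be told apart. The brighter probe read 279.6, 249 and 269 signal units on the 3 control arrays, 938, 1047 and 1005 in WT PSC medium, and 949.5, 1026 and 1016 in HT PSC medium. The control arrays lay close together, and each of the 6 arrays in PSC medium was more than 3 times as bright as any of them. In the dimmer probe the same arrays read 250.1, 195 and 237 in control medium, 787, 769 and 742 in WT PSC medium and 699.6, 738 and 793 in HT PSC medium. Both probes were well above background, the scanner software's criterion for a detected spot, on all 15 arrays, and none of their spots was saturated or marked as an outlier.

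To set arrays side by side, each value was taken as log2 signal relative to the 75th percentile of its array. On that scale the brighter probe was at -2.22 ± 0.04 (SD, n = 3) in control medium, -0.36 ± 0.07 in WT PSC medium and -0.39 ± 0.10 in HT PSC medium. In linear terms the probe stood at 21.4% ± 0.655 of the percentile in control medium, 78.0% ± 3.87 in WT PSC medium and 76.6% ± 5.41 in HT PSC medium. The dimmer probe was at -2.46 ± 0.11, -0.74 ± 0.04 and -0.81 ± 0.04 in the same order. In both probes the lowest array in either PSC medium lay above the highest control array, by 1.69 or more in the brighter and 1.49 or more in the dimmer on the log2 scale.

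**Figure D1:**
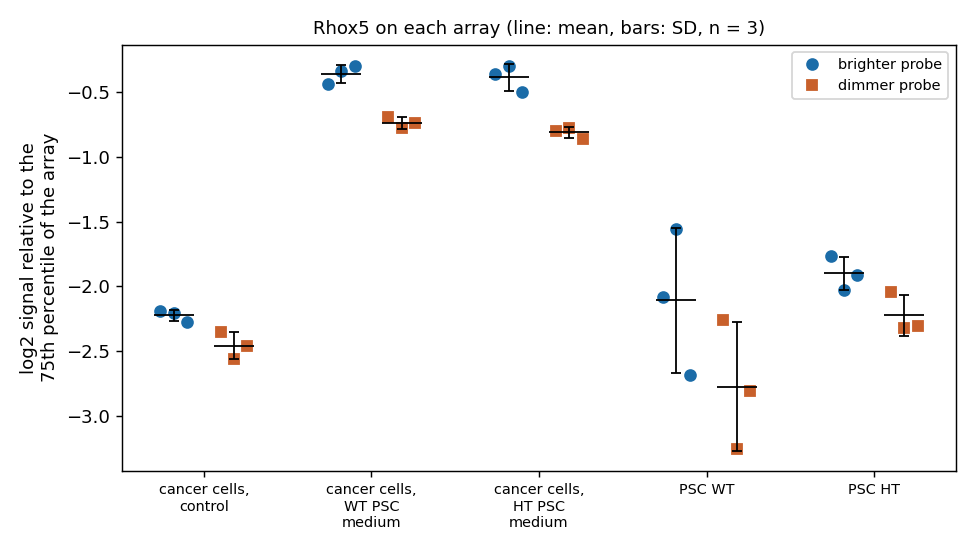
Log2 signal of both Rhox5 probes relative to the 75th percentile of each array, by group, with 1 point per array, a line at the group mean and bars of 1 SD (n = 3). The cancer cells in either PSC medium sit between -0.86 and -0.30, above every control and PSC array, and the PSC WT arrays spread widest.

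Rhox5 was chosen by its measured rise on the cancer cell arrays, so its differences there are descriptions with no test. The log2 difference from control medium was 1.87 ± 0.07 (SE, n = 3 per group) in WT PSC medium, a 3.64-fold rise, and 1.84 ± 0.07 in HT PSC medium, a 3.58-fold rise. These comparisons share their control arrays. The dimmer probe gave 1.72 ± 0.07 and 1.65 ± 0.07, or 3.29-fold and 3.13-fold. With the arrays of each of the 2 slides taken alone, the WT PSC medium difference was 1.79 on slide 1 and 1.89 on slide 2, and the HT PSC medium difference 1.80 and 1.91. Slide 1 held control arrays 1 and 3, WT PSC medium array 1 and HT PSC medium arrays 1 and 3. Slide 2 held control array 2, WT PSC medium arrays 2 and 3 and HT PSC medium array 2. Apart from the HT PSC medium difference on slide 1, each therefore has a lone array on at least 1 side.

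Among the 19686 genes tested in the cancer cells, Rhox5 had the largest rise in WT PSC medium, ahead of Rims2, a scaffold protein of synaptic release sites, at 1.79 ± 0.14 and Cdcp3 at 1.78 ± 0.47. In HT PSC medium it ranked 3, behind the hair follicle keratin gene Krt25 at 3.29 ± 0.37 and 1 unnamed entry. The position depended on which genes were kept: without the filter on dim probes Rhox5 was 41st in WT PSC medium and 76th in HT PSC medium. With 1 array left out at a time it ranked between 1 and 16 in WT PSC medium and between 2 and 18 in HT PSC medium. Read by its dimmer probe it ranked 3 in both media. It ranked 2 and 3 with slide as a block and 3 and 5 with all 15 arrays in 1 fit. Within either slide, where fewer arrays enter the fit, it ranked lower than in the main fit in both media.

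The media of WT and HT PSC gave Rhox5 levels that overlapped. The difference of HT from WT PSC medium was -0.03 ± 0.07, with a 95% interval of -0.19 to 0.14, in the brighter probe and -0.07 ± 0.07, with an interval of -0.23 to 0.08, in the dimmer. These intervals, taken from limma's moderated variance on the arrays by which Rhox5 was chosen, describe the precision and are not a test. A difference larger than these bounds is not covered by them. Leaving out 1 array at a time gave -0.07 to 0.03. In the same comparison limma called 0 of 19686 genes at an adjusted p of 0.05, while 983 had an unadjusted p under 0.05.

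In the stellate cells Rhox5 was detected but varied between arrays. The brighter probe read 213, 480.4 and 149.97 signal units in PSC WT and 301, 276 and 264 in PSC HT. The second PSC WT array was the brightest of the 6 and the third was the dimmest, so that the WT arrays enclosed the HT arrays. Relative to the 75th percentile the groups stood at -2.11 ± 0.56 and -1.90 ± 0.13 (SD, n = 3). The log2 difference of HT from WT was 0.21 ± 0.27 (SE), and limma's adjusted p over the 20886 genes tested was 0.733, with a 95% interval of -0.44 to 0.86.

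The second PSC WT array was the one on which the 2 probes parted. There the dimmer probe read 148 signal units where the brighter read 480.4, a gap of 1.70 on the log2 scale, whereas on the other 14 arrays the gap was 0.12 to 0.48. The pixels of that brighter spot varied by 17.5% (SD over mean), within the 11.4% to 25.8% of the same probe elsewhere. In the dimmer probe PSC WT read 188, 148 and 137.6 and PSC HT 249, 225 and 200.4. That probe's difference of HT from WT was 0.55 ± 0.25, with limma's adjusted p at 0.263 and an interval of -0.04 to 1.15. The brighter probe's difference was 0.48 without the second PSC WT array and fell to -0.08 without the third, so its direction in the stellate cells rested on single arrays.

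Over the 5 groups the brighter probe placed Rhox5 highest in WT PSC medium, then HT PSC medium, PSC HT, PSC WT and control cancer cells. Neighbours in this order overlapped in their arrays at each step, apart from that between HT PSC medium and PSC HT, where every array in HT PSC medium lay above every PSC HT array. On this scale PSC HT arrays lay above the control cancer cell arrays in both probes, at -2.02 to -1.77 against -2.27 to -2.19 in the brighter. In the dimmer the lowest PSC HT array was at -2.32 and the highest control array at -2.35. The signal units of the brighter probe overlapped, at 264 to 301 in PSC HT and 249 to 279.6 in control medium. The step between PSC WT and control cancer cells changed sign with median scaling and quantile normalization, as given below. Whether PSC HT stays above control cancer cells under another scaling was not tested. PSC WT and control cancer cells were not ordered the same way by the probes, as the difference of PSC WT from control was 0.12 ± 0.27 in the brighter and -0.32 ± 0.24 in the dimmer. It was also negative with median scaling (-0.27) and quantile normalization (-0.07), settings under which the median of all 21924 genes tested stood at -0.36 and -0.07 instead of 0.03.

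The spread of the homeobox genes, which encode transcription factors that set cell and tissue identity, gives the scale on which to read Rhox5. Of 242 other homeobox genes on the array 97 passed the filter in the cancer cells, each by being detected on every array of 1 or more groups. Their differences in WT PSC medium ran from -0.76 for Pou6f1 to 0.82 for Rhox2e with an SD of 0.30, and 0 of 97 were as large as that of Rhox5 in either direction. In HT PSC medium they ran from -0.75 for Barx2 to 1.00 for Dlx5 with an SD of 0.29, and again 0 of 97 were as large. Their medians were 0.03 and 0.00 beside 0.02 and 0.01 over all genes tested. Rhox5 lay outside the range of these 97 genes in both media, which is a description, since it was chosen for this, and the other homeobox genes were too dim to be compared.

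**Figure D2:**
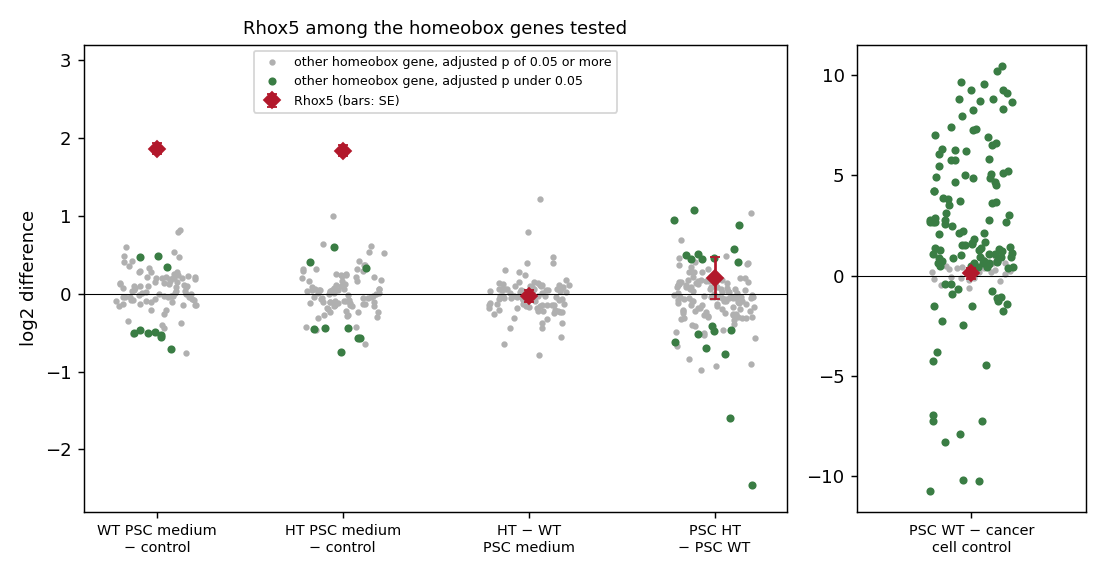
Log2 differences of Rhox5 (diamond, bars of 1 SE) and of each other homeobox gene tested (points, green where limma's adjusted p is under 0.05) in 5 comparisons, the last drawn on its own wider axis. Rhox5 stands above all 97 other homeobox genes in both comparisons of PSC medium with control and lies inside their range in the other 3.

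Some other homeobox genes changed in WT PSC medium, by less than Rhox5. Limma called 3 higher and 7 lower, 10.3% of 97, where 5.92% of all genes tested were called (2.71% higher, 3.22% lower). Dlx4, a distal-less factor, rose by 0.49 ± 0.10 (adjusted p = 0.0243), Lhx9, a LIM factor of the developing gonad, by 0.47 ± 0.08 and Prrx2, a paired-related factor of mesenchyme, by 0.35 ± 0.08. The zinc finger homeobox genes Zhx1 and Zhx3 fell by 0.71 ± 0.11 and 0.53 ± 0.12, Tshz2 by 0.56 ± 0.08, and Meis2, a partner of Hox proteins, and Onecut1, a liver and pancreas factor, by 0.50 ± 0.05 and 0.50 ± 0.08. The count was 5, 6 and 5 without WT PSC medium array 1, 2 or 3, and median scaling called 3 higher and 2 lower. Lhx9 was called under each of normexp correction, median scaling, quantile normalization and the mean of probes. Dlx4 was not called with normexp (0.22, adjusted p = 0.177). Prrx2, Zhx3, Tshz2, Meis2 and Onecut1 were not called with median scaling (adjusted p of 0.0530 to 0.119). With the mean of probes Zhx1 (adjusted p = 0.0828), Tshz2 (adjusted p = 0.226) and Zhx3 were not called, and Zhx3, at -0.19 (adjusted p = 0.560), also not with quantile normalization (adjusted p = 0.0586).

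In HT PSC medium limma called 3 other homeobox genes higher and 6 lower, 9.28% of 97, where 5.45% of all genes tested were called (2.93% higher, 2.52% lower). Dlx4 rose by 0.60 ± 0.10, Lhx9 by 0.41 ± 0.08 and Tgif1, a repressor in TGF-beta signalling, by 0.33 ± 0.06, while Barx2 fell by 0.75 ± 0.17, Zhx3 by 0.57 ± 0.12 and Meis2 by 0.56 ± 0.05. The count was 2 and 5 without control array 1 or 2 and 3 without HT PSC medium array 1 or 3. Under the same 4 alternatives each kept its direction, but of those named Meis2 alone was called under all of them. With normexp, which called 0 higher and 5 lower, Dlx4 (0.27, adjusted p = 0.0963), Lhx9 (0.30, adjusted p = 0.0817), Tgif1 (0.31, adjusted p = 0.0660) and Barx2 (-0.33, adjusted p = 0.0896) were not called. Median scaling lost Lhx9, Tgif1 and Zhx3 (adjusted p of 0.0642 to 0.0901). The mean of probes lost Barx2, Tgif1 and Zhx3 (adjusted p of 0.0608 to 0.909, with Zhx3 at -0.06), and quantile normalization Barx2 and Zhx3 (adjusted p = 0.0537 for both). Of 97 genes 0 were called between the media, and 3 had an unadjusted p under 0.05.

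Between the stellate cell genotypes, where Rhox5 did not pass the test, limma called 10 other homeobox genes higher and 9 lower in PSC HT among 142 tested, where 7.73% of all genes tested were called (2.93% higher, 4.79% lower). Of the 142, 67 differed by at least as much as Rhox5. Hoxb13 was higher by 1.07 ± 0.16, with 1 of 3 PSC WT arrays well above background, but with normexp correction by 0.37 and not called (adjusted p = 0.0597). Higher too were Hopx, a homeodomain protein without DNA binding, by 0.95 ± 0.13 and Irx3 by 0.89 ± 0.13. Lhx9 was at least 1.85-fold lower (adjusted p = 8.3e-04), as no PSC HT array was well above background. It passed the filter through PSC WT alone. With normexp correction the Lhx9 difference was smaller than that bound, at -0.58 (adjusted p = 0.0310). Dlx4 was lower by 1.59 ± 0.09. The count was 5, 4, 12 and 8 without PSC WT array 2, PSC WT array 3, PSC HT array 2 or PSC HT array 3. Macrophage markers also differed between these genotypes, as given below, and their part in these calls was not tested.

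Between PSC WT and control cancer cells Rhox5, read by its brighter probe, was among the homeobox genes that differed least. At 0.12 ± 0.27, it was exceeded by 151 of the other 153 tested, in either direction. That count is of the main fit, while the Rhox5 difference was -0.32 with the dimmer probe and -0.27 with median scaling. With 1 array left out it ran from -0.16 to 0.40. Genes detected in only 1 of the 2 groups were among those tested. Limma called 102 of those higher and 25 lower in PSC WT, 83.0%, where 71.3% of all genes tested were called (36% higher, 35.3% lower). Hoxb7 and Emx2 were at least 334-fold and 248-fold higher in PSC WT, with no control cancer cell array well above background. Pdx1, a transcription factor of the pancreas, was at least 407-fold lower, with no PSC WT array well above background. With normexp correction the log2 differences of Hoxb7, Emx2 and Pdx1 were 6.77, 6.78 and -6.92, each smaller than its bound.

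Most other genes of the Rhox cluster were too dim to be tested in the cancer cells. The cluster's 21 other genes on the array had 24 probes, of which 12 were on no array well above background, 9 on some and 3 on all 15. Rhox6 and Rhox9, which like Rhox5 are known from placenta, were well above background on 0 arrays and on 1 PSC HT array. Rhox10, Rhox11, Rhox12 and Rhox13, at the far end of the cluster and known from the testis, were on no array well above background. In the cancer cells 6 other Rhox genes passed the filter, and limma called 0 of them in either PSC medium, where 5.92% and 5.45% of all genes tested were called. With only 6 genes a count of 0 cannot be set apart from these shares. The largest difference was that of Rhox2e, at 0.82 ± 0.30 in WT PSC medium (adjusted p = 0.167) and 0.61 ± 0.30 in HT PSC medium, with 1 of 3 control arrays well above background. Rhox2, Rhox3 and Rhox4 are families of near-identical copies, so their probes may read several of them.

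**Figure D3:**
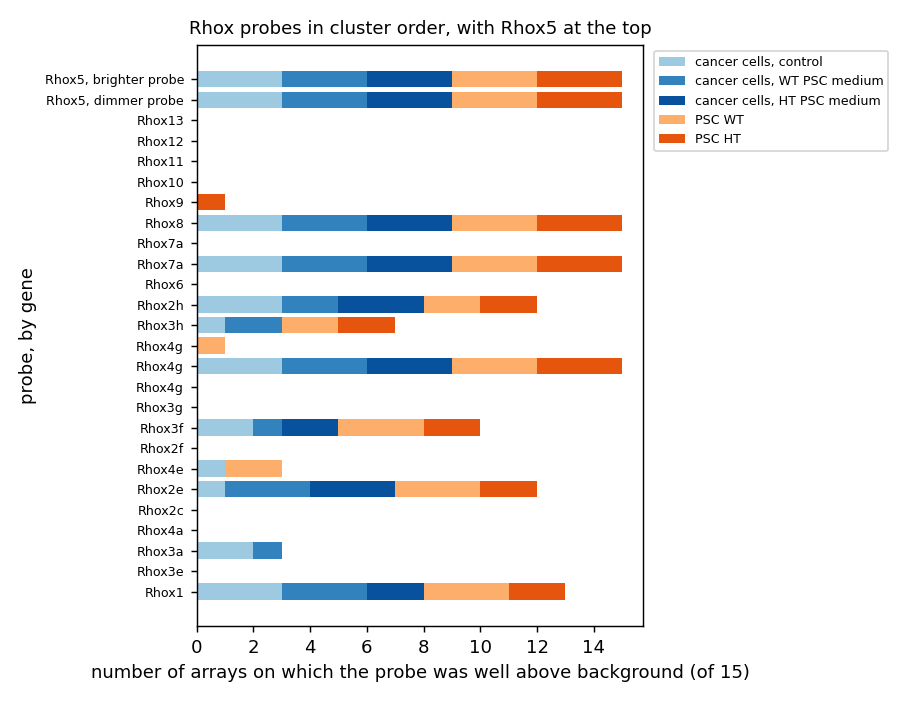
Number of arrays, of 15, on which each Rhox probe was well above background, as bars stacked by group with 3 arrays in each, in cluster order with the 2 Rhox5 probes at the top. Both Rhox5 probes reach 15, as do 1 probe each of Rhox4g, Rhox7a and Rhox8, while 12 of the 24 other probes reach 0.

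The probes of Rhox8 and Rhox4g that were above background on all arrays differ from those of Rhox5 in sequence. The Rhox8 probe is shown because most of it is a simple repeat, marked in capitals.
Rhox8 probe: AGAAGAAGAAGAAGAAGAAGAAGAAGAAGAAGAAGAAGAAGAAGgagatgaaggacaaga
Its repeat of 44 bases is one that 0.0106% of all probes on the array equal or exceed. The Rhox4g probe holds TGTGTGTGTGTGTGTGTGT, a repeat of 19 bases that 0.242% equal or exceed, and the other 2 Rhox4g probes were above background on 1 array and on none. In the other 24 Rhox probes, Rhox5 included, the longest repeat was 3 to 10 bases. Rhox8 was at 4.79 in control cancer cells, 4.66 in WT PSC medium and 4.52 in HT PSC medium, and Rhox4g at 4.38, 4.50 and 4.55, with limma's adjusted p between 0.440 and 0.716 in the 4 comparisons with control. What the repeat adds to these readings was not tested.

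Genes near the cluster were read in the same comparisons. As the Rhox5 probes have no position in the files, the window was set, after the files were seen, to 1 Mb on either side of the mapped Rhox probes (chrX:34753955-35476295, build mm9). Of 45 other genes there 25 were tested in the cancer cells. In WT PSC medium limma called 2 of the 25 higher and 0 lower, where 5.92% of all genes tested were called, with differences from -0.25 to 0.40 and a median of -0.02. In HT PSC medium it called 1 higher and 0 lower, where 5.45% of all genes tested were called, with a median of 0.05. Both counts were near the share over all genes. The ring finger gene Rnf113a1 was called in both, at 0.32 ± 0.07 (adjusted p = 0.0353) and 0.38 ± 0.07 (adjusted p = 0.0202), and was not called with median scaling, at an adjusted p of 0.169 and 0.109, nor in WT PSC medium with normexp correction (adjusted p = 0.0555) or the mean of probes (adjusted p = 0.0575). The other call was a transcript with no gene symbol, at 0.40 ± 0.09 in WT PSC medium. In the stellate cells limma called 2 of 26 tested, where 7.73% of all genes tested were called. Lonrf3 was higher in PSC HT by 1.32 ± 0.26, and by 0.77 with normexp correction (limma's adjusted p = 0.0449). Sowahd was lower in PSC HT with limma's adjusted p at 0.00603. It passed the filter through PSC WT, at -4.73, while PSC HT was near the floor at -7.38. With normexp correction the Sowahd difference was -0.57 (limma's adjusted p = 0.0271).

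Genes tied to the known control of Rhox5 were read in the cancer cells from lists. Of 16 genes tested from the list of reported upstream factors, which holds Ets, Sp1, Ras, GATA and steroid receptor genes, limma called 0 in either medium, where 5.92% and 5.45% of all genes tested were called. Those with the smallest p in WT PSC medium were the Ets genes Etv4 at 0.18 ± 0.07, Ets2 at 0.14 ± 0.05 and Elf1 at -0.21 ± 0.08, and the Ras gene Nras at 0.21 ± 0.09, with adjusted p of 0.198 to 0.240. Elf3, an Ets-type gene read with the epithelial markers below, is not among these 16. Limma called it lower in WT PSC medium, at -0.56 ± 0.08 (adjusted p = 0.00494), and in HT PSC medium, at -0.44 ± 0.08 (adjusted p = 0.0168). With median scaling Elf3 was not called in HT PSC medium (adjusted p = 0.0985). Of 23 genes of the DNA methylation machinery 1 was called in WT PSC medium, Tdg, a glycosylase that removes oxidized methylcytosine, higher by 0.36 ± 0.06 (adjusted p = 0.0136). In HT PSC medium 0 of the 23 were called and Tdg was at 0.24 ± 0.06 (adjusted p = 0.0688). These counts are too small to be set apart from the shares over all genes. With median scaling the adjusted p of Tdg in WT PSC medium was 0.110. Protein activity, which the arrays do not measure, was not tested.

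Genes that share a regulation or a tissue with Rhox5 were also listed, and their counts stand beside 5.92% of all genes tested called in WT PSC medium and 5.45% in HT PSC medium. The lists are too short for their counts to be set apart from these shares. Of 31 germline genes on the array known to be silenced by DNA methylation 5 were tested in the cancer cells, and limma called 0 of them in either medium. Of 8 placental genes tested 1 was called in WT PSC medium, the hormone gene Sct, higher by 0.45 ± 0.08 (adjusted p = 0.0161), and 0 in HT PSC medium, where Sct was at 0.24 ± 0.08. Of the genes reported to lie downstream of Rhox5 in reproductive tissue 2 were tested and 0 called. Pltp, a phospholipid transfer protein, was at 0.34 ± 0.17 in WT and 0.55 ± 0.17 in HT PSC medium, and Unc5c, a netrin receptor, at -0.10 ± 0.06 and -0.205 ± 0.06.

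The labelled cell types were checked against 12 markers each. The median level of the activated stellate cell markers was 5.99 to 6.35 on PSC arrays and -6.90 to -6.01 on cancer cell arrays, while epithelial markers were at 2.56 to 2.83 on cancer cell arrays and -3.63 to -3.15 on 5 of the 6 PSC arrays. The third PSC HT array stood apart at -2.06, and there the epithelial cadherin gene Cdh1 was at -2.43, against -8.21 to -7.59 on the other PSC arrays. Without that array the Rhox5 difference of HT from WT was 0.21 (limma's adjusted p = 0.825), and the part of epithelial RNA in the other stellate cell values was not tested. In the PSC media the median of the stellate markers stood at -6.90 to -6.03, against -6.74 to -6.01 in control medium. Limma called 0 of the 3 tested there in either medium, beside 5.92% and 5.45% of all genes tested. The second WT PSC medium array had 6 of the 12 well above background, against 3 to 5 on the other cancer cell arrays. Col1a1 was at -2.84 there, against -4.01 and -3.99 in the same medium. Without that array the Rhox5 difference in WT PSC medium was 1.85. Macrophage markers had a median of -2.63 to -1.45 in PSC WT and -0.03 to 1.65 in PSC HT. Limma called 11 of the 12 higher in PSC HT, 91.7%, beside 7.73% of all genes tested. The part of macrophage RNA in the stellate cell values of Rhox5 and of the other homeobox genes was not tested. In WT PSC medium limma called 2 of the 12 epithelial markers higher and 2 lower, 33.3%, beside 5.92% of all genes tested. Among them were the claudin gene Cldn4, at 1.03 ± 0.12, and the Ets-type epithelial factor Elf3, at -0.56 ± 0.08. In HT PSC medium it called 2 higher and 1 lower, 25%, beside 5.45%. With median scaling the keratin gene Krt7 and the occludin gene Ocln were not called in WT PSC medium (limma's adjusted p = 0.0777 and 0.109). Elf3 and Krt7 were then not called in HT PSC medium (limma's adjusted p = 0.0985 and 0.179). Of 5 macrophage markers tested 1 was called in either medium (20%), Cd68, at 0.51 ± 0.08 and 0.55 ± 0.08. With the mean of probes Cd68 was not called (limma's adjusted p = 0.134 and 0.0541). The 75th percentile of signal was 902 to 1437 per array. The slope of the spiked-in control RNAs was 0.896 to 1.06, with the 3 PSC WT arrays and the second PSC HT array at 0.93 or below, and its part in the stellate cell values was not tested.

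The genes with a pattern most like Rhox5 were named by Pearson correlation over the 9 cancer cell arrays among the 19685 other genes tested. Frmpd1, a scaffold protein with FERM and PDZ domains, had r = 0.997, the smooth muscle protein gene Smtn 0.9955, Mfap3l 0.994, the growth factor gene Nrg1 0.993 and the zinc finger repressor gene Zbtb32 0.992. The points share the 3 control arrays and fall into a low and a high cluster, so that r here mainly says that a gene took the same low and high arrays. Mfap3l came nearest to Rhox5 in size, at 1.34 ± 0.08 in WT PSC medium and 1.31 ± 0.08 in HT PSC medium. Frmpd1 rose by 0.76 ± 0.06 and 0.79 ± 0.06, Smtn by 0.57 ± 0.05 and 0.54 ± 0.05, Nrg1 by 0.60 ± 0.06 and 0.62 ± 0.06 and Zbtb32 by 0.72 ± 0.07 and 0.68 ± 0.07. The most opposite patterns were those of Slc25a45 at r = -0.994, Ehd2 at -0.993 and Batf2 at -0.992.

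**Figure D4:**
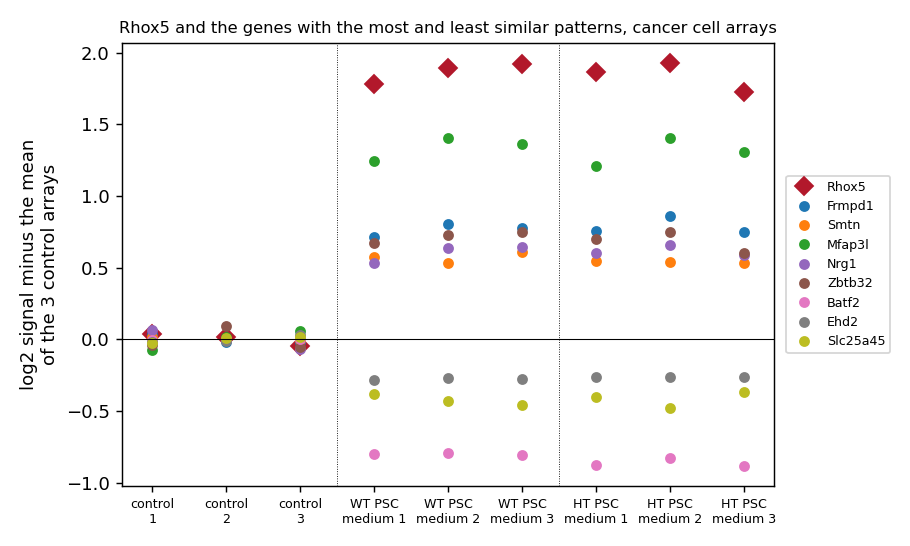
Log2 signal on each of the 9 cancer cell arrays minus the mean of the 3 control arrays, for Rhox5 (diamonds) and the 5 most similar and 3 most opposite genes by Pearson correlation (circles). Rhox5 lies highest on all 6 arrays in PSC medium, followed by Mfap3l, while Batf2, Slc25a45 and Ehd2 lie below 0 there.

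Over all 15 arrays and 22169 genes the highest correlations with Rhox5 were lower. They were 0.931 for the copper transporter gene Slc31a1, 0.927 for Rtkn2, 0.917 for the RNA-binding protein gene Qk, 0.913 for Aldh18a1, an enzyme of proline synthesis, and 0.912 for Atf6, a sensor of endoplasmic reticulum stress. Like Rhox5 these genes had similar levels in PSC WT and control cancer cells, with differences of -0.25 to 0.11. That likeness follows from their choice by correlation over all 15 arrays. Their rises were smaller, from 0.21 ± 0.06 for Slc31a1 to 0.77 ± 0.10 for Rtkn2 in WT PSC medium.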

How the data were processed

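The deposited scanner files hold spot intensity that, per the file headers, Agilent Feature Extraction 10.7.3.1 background subtracted and detrended, with no scaling between arrays. How the log2 values of the deposited series matrix were made is not given in the sources used here, and they were an alternative for comparisons inside 1 cell type. Outlier spots were dropped and each array's 75th percentile was subtracted from log2 intensity. A gene was read by its probe of highest mean, and tested where every array of 1 or more groups detected it. Probes were named through RefSeq by accession (32994), symbol (10224) or synonym (520), and 12867 kept the files' name.

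Limma 3.58.1 in R 4.3.3 was fitted to the 6 PSC arrays, the 9 cancer cell arrays, and PSC WT with control cancer cells, with Benjamini-Hochberg adjustment over all genes tested and a threshold of 0.05. The fits were tested on simulated data. "At least N-fold" compares, on the scale of the main fits, the brighter group with the higher of each dim array's detection floor and its reading. Precision is limited by 3 arrays per group.

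Rhox5 and all gene lists were chosen with earlier results of these data known. Named were all Rhox genes, up to 5 rises and 5 falls of other homeobox genes per comparison past the threshold without overlap (fewer are printed, and a result the rule would name is not reported here), up to 4 members per list by smallest p, and the genes most like Rhox5. Alternatives changed background correction (normexp, offset 50), scaling, filter, probe, slide or replicate block, variance model and arrays. The deviations of same-numbered samples correlated at over 0.1 in all 3 pairs of control with WT PSC medium (0.14 to 0.21), but in 5 of 9 pairs of the whole cancer cell fit (-0.17 to 0.23) and 1 of 3 PSC pairs. Differently numbered pairs of control with WT PSC medium ran from -0.36 to 0.17, which overlaps the same-numbered pairs, so pairing by number was not established. The main fits have no replicate block. Python 3.11.15, numpy, pandas and matplotlib drew the figures.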

Additional observations from a re-analysis of the deposited data

How the results depend on the processing

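In all alternatives run the Rhox5 difference from control medium stayed positive, between 1.64 and 1.92 in WT PSC medium and between 1.58 and 1.91 in HT PSC medium. It moved by more than the spread between replicates with normexp correction (1.64 and 1.58), the mean of both probes (1.79 and 1.74), the deposited series matrix (1.67 and 1.60), the dimmer probe (1.72 and 1.65, chosen after seeing the data) and, in WT PSC medium, within slide 1 (1.79). Leaving out 1 array at a time gave 1.84 to 1.91 and 1.795 to 1.895. Between the genotypes of the stellate cells the Rhox5 difference, -0.078 without the third PSC WT array, ranged from -0.08 to 0.48 with 1 array left out, at an adjusted p of 0.288 to 0.912. Between PSC WT and control cancer cells it ranged from -0.16 to 0.40 with 1 array left out and was -0.32 with the dimmer probe. Between the media it ranged from -0.07 to 0.03.

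Counts of other homeobox genes past the threshold depended more on the processing. For PSC HT against PSC WT (19) they were 2 without the filter on dim probes, 0 and 3 within slide 1 and 2, 6 with a replicate block, and 4 to 16 with 1 array left out. For WT PSC medium (10) they were 5 with median scaling, 5 without the filter, 0 and 2 within slide 1 and 2, 6 with all 15 arrays in 1 fit, 7 with a replicate block, and 5 to 11 with 1 array left out. For HT PSC medium (9) they were 5 with normexp, 3 with median scaling, 1 without the filter, 4 with the mean of probes, 0 within either slide, 5 with a replicate block, 4 with all 15 arrays in 1 fit, and 2 to 10 with 1 array left out. Between the media they stayed at 0, and for PSC WT against control cancer cells at 122 or more, with 1 array left out. Within a slide fewer arrays enter the fit. For the other changes the cause was not tested. As pairing by number was not established, a call lost with the replicate block is not read as a weaker effect. The block left each Rhox5 difference at its value. With 3 arrays per group the 95% interval of the Rhox5 difference between the stellate cell genotypes was as wide as -0.44 to 0.86.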
